A study of Mus musculus with 12 samples.

Results

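The genes described here are 9 genes of cellular zinc handling, namely the zinc exporters Slc30a8, Slc30a1, Slc30a5 and Slc30a7, the zinc importers Slc39a5, Slc39a8 and Slc39a14, and the metallothioneins Mt1 and Mt2. They were taken by gene name from the deposited table of 55417 genes, and all 9 were among the 17230 genes that passed the filter on low counts. The table holds RNA-seq of pancreatic cells from Gcg-Timer mouse embryos at E17.5, whose green and red fluorescent reporter is tied to Gcg, the glucagon gene. All 12 libraries carry this genotype, and per the study design each dissociated pancreas preparation was divided by flow sorting. Group B holds cells with green and red signal, labelled as more differentiated alpha cells. Group A holds green dominant cells, labelled as newly generated alpha cells. Group N holds non-alpha cells, a mixture of the other cells of the organ. There are 4 libraries per group, from different mothers, and p-values measure the spread between these libraries.

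Proteins of the SLC30 (ZnT) family move zinc out of the cytosol, across the plasma membrane or into organelles, and proteins of the SLC39 (ZIP) family move it in. Metallothioneins are small cysteine-rich proteins that bind zinc in the cytosol, and the zinc-sensing transcription factor MTF1 switches on their genes and that of the exporter Slc30a1 when free zinc is high. Islet endocrine cells store zinc in their hormone granules through ZnT8, the Slc30a8 protein, while acinar cells secrete zinc with their digestive enzymes.

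Total estimated counts were 16216967 to 24259218 in B, 18168677 to 25873635 in A and 32114292 to 38545756 in N. Gcg stood at 37267 ± 7186 CPM (normalised counts, scaled to the library size) in B, 15389 ± 4430 CPM in A and 102 ± 30.9 CPM in N (SD, n = 4 each). The gates were set on its reporter, so these levels are not independent of the sort. The 9 alpha cell markers, Gcg among them, summed to 5.40% of counts in B, 2.42% in A and 0.0398% in N, so this sum is not independent of the sort either. The 16 acinar markers summed to 1.07 to 2.5% of counts in B, 1.82 to 3.10% in A and 4.46 to 7.73% in N, and the 8 erythroid markers to 0.0277 to 0.0942% in B, 0.0340 to 0.214% in A and 6.14 to 23.0% in N. The 10 beta cell markers made up 0.482% ± 0.0301 of counts in B, 1.26% ± 0.686 in A and 0.448% ± 0.190 in N (SD, n = 4 each). No marker of these lists was at 0 in every library of a group. In bulk samples such as these, fewer cells of a type and less RNA per cell cannot be told apart.

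The 9 genes divided into 1 that was far higher in the alpha cell groups than in N, Slc30a8, and 8 that had lower normalised counts there, most of all Mt1, Mt2 and Slc39a5. Between B and A none of the 9 passed the test. In B against A, 0 of 9 were called by edgeR at a Benjamini-Hochberg adjusted p under 0.05 and 0 by DESeq2, against 13.7% of all genes tested (4.63% higher and 9.12% lower), and 1 had an unadjusted p under 0.05 in the edgeR fit without pairing, against 28.6% of all genes. Of the 9, 8 had a negative log2 change, with a median of -0.24 where the median of all genes was -0.01. In A against N, 1 was called higher (23.8% of all genes were) and 6 lower (21.3%), together 7 of 9 against 45.1% of all genes (DESeq2 called 1 higher and 7 lower), and the median was -0.84 beside -0.02 for all genes. In B against N, 1 was called higher (29.7% of all genes) and 7 lower (30.5%), together 8 of 9 against 60.2% (DESeq2 called 1 higher and 8 lower), and the median was -1.06 beside -0.03 for all genes. An unadjusted p under 0.05 was reached by 8 of 9 in A against N and by 8 of 9 in B against N, against 52.8% and 64% of all genes. Both comparisons share the N libraries.

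**Figure D1:**
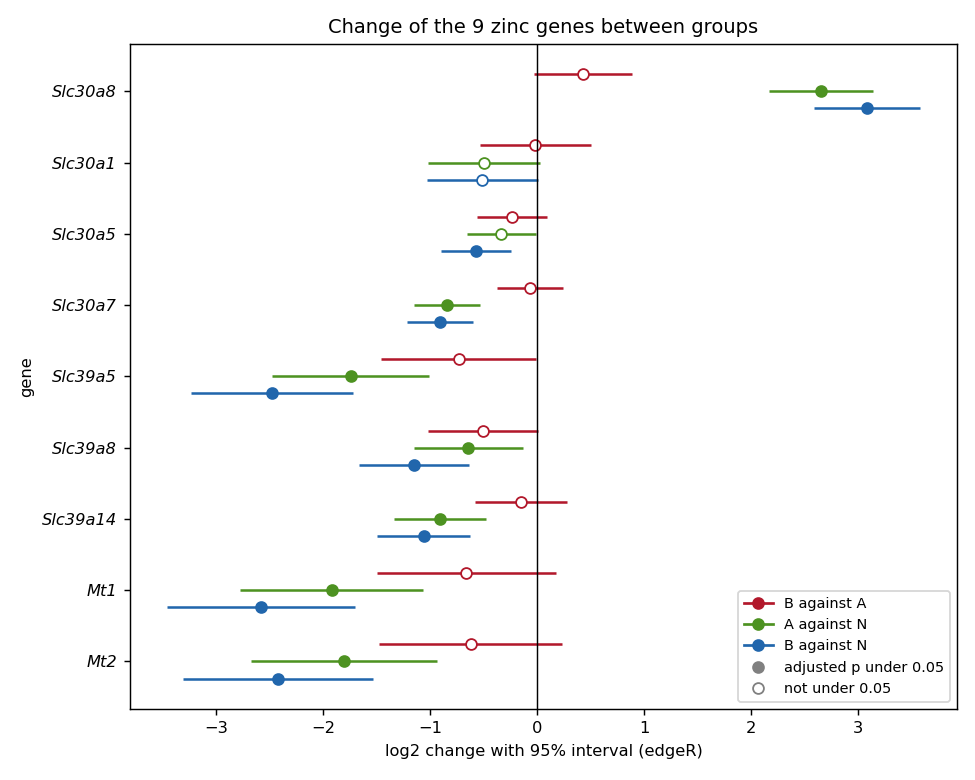
Log2 change of each gene with its 95% interval from edgeR, for B against A, A against N and B against N, filled where the adjusted p is under 0.05. All 9 intervals of B against A are open symbols, Slc30a8 lies at 3.08 in B and 2.65 in A against N, and Mt1, Mt2 and Slc39a5 lie furthest to the left.

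The zero of each change against N is set by the typical gene. Scaled to library totals, with no normalisation factors, the median gene moved by 0.57 in A against N and by 0.54 in B against N, and on the log2(TPM + 1) scale of the deposited TPM, not centred on the median gene (scaled to transcript length and library) it stood at 0.78 and 0.76. The higher level of Slc30a8 and the lower levels of Mt1, Mt2 and Slc39a5 held their direction on all of these scales. The directions of Slc30a1, Slc30a5, Slc30a7, Slc39a8 and Slc39a14 in A against N turned round on the uncentred TPM, and those of Slc30a1, Slc30a5, Slc30a7 and Slc39a14 did so in B against N. For these 5 genes, lower below means lower on TMM-scaled counts, and the TPM centred on the median gene did not always give the same call.

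**Figure D2:**
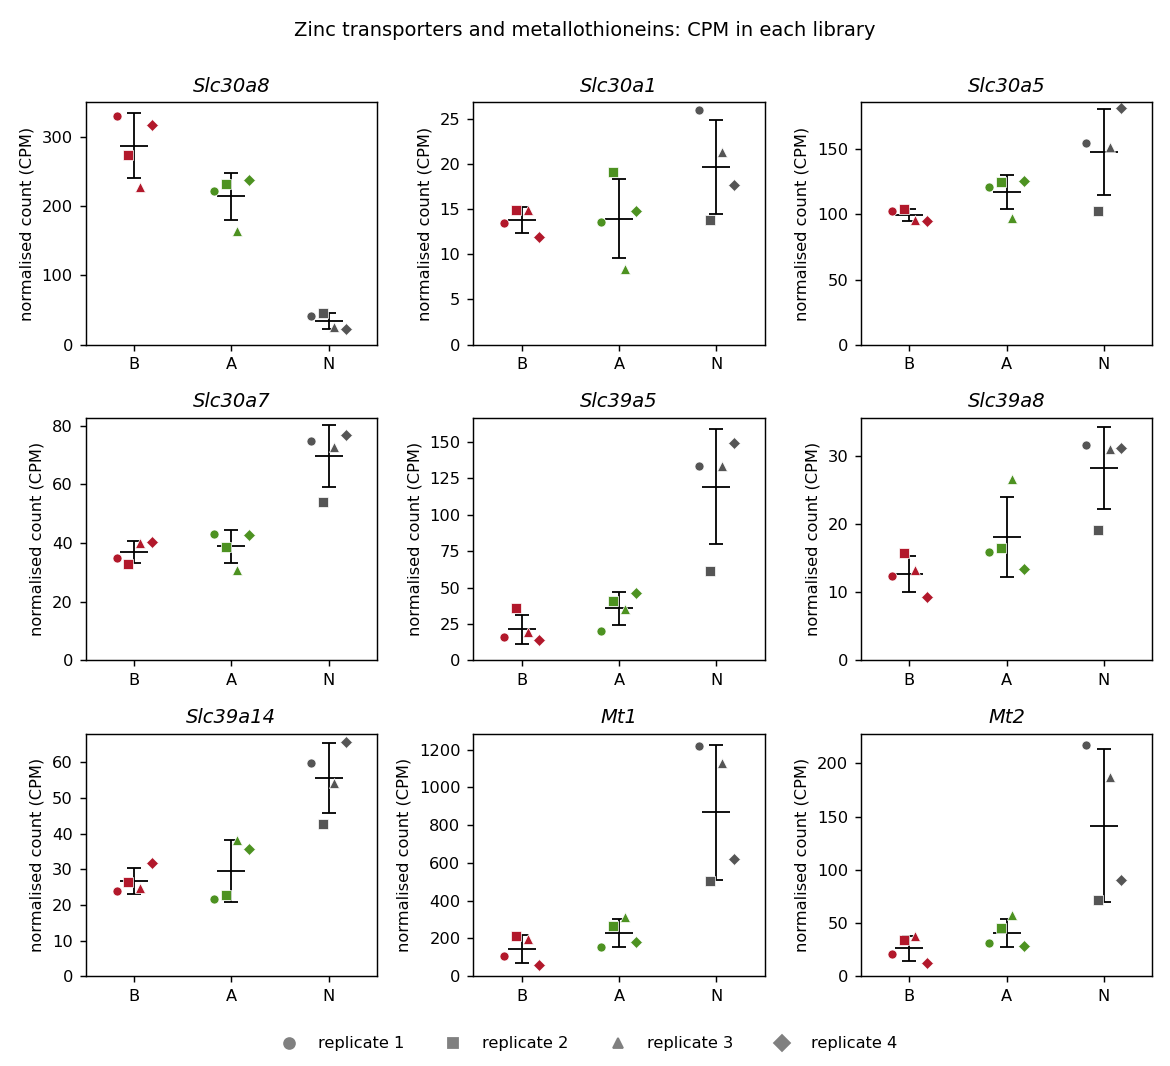
Normalised count (CPM) of each gene in each library by group, with symbols for replicates 1 to 4 and the mean and SD of the group. Slc30a8 is highest in B at 288 CPM on average and lowest in N at 34.1 CPM, while the other genes have their highest group mean in N.

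Slc30a8 (ENSMUSG00000022315.4, chromosome 15, 52158949 to 52199194, plus strand, GRCm39), the granule exporter, was the gene of the 9 that marked the alpha cell groups. It stood at 331, 275, 227 and 318 CPM in B replicates 1 to 4, at 222, 233, 164 and 238 CPM in A, and at 41.5, 45.7, 25.9 and 23.1 CPM in N. Every library of B and of A lay above every N library, while B and A overlapped. The level was 8.45-fold higher in B than in N (log2 change 3.08, SE 0.23, edgeR adjusted p = 1.68e-07) and 6.29-fold higher in A than in N (2.65, SE 0.23, edgeR adjusted p = 1.06e-06), and it was called higher in both under all 23 alternative settings. The size depends on the scaling, with 12.3-fold in B and 9.31-fold in A when no factors were used, and 17.1-fold in B and 12.9-fold in A on the uncentred log2(TPM + 1) scale. Between B and A the log2 change was 0.43 (SE 0.21, 95% interval -0.03 to 0.88, edgeR adjusted p = 0.207), with B higher in 4 of 4 replicate pairs, and no setting called it. In the fit with a term for the replicate number the 95% interval was 0.06 to 0.80 (edgeR adjusted p = 0.108). Beta cells also express Slc30a8, and the part of the beta cell markers, whose shares are given above, in these levels was not tested.

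The ratio of Slc30a8 to Gcg, whose product is stored in the same granules, was lower in every B library than in any A library. The ratio of Slc30a8 to Gcg counts was 0.00940, 0.00878, 0.00652 and 0.00666 in B replicates 1 to 4 and 0.0170, 0.0185, 0.0118 and 0.0108 in A. The groups did not overlap, and the ratio was lower in B in 4 of 4 pairs (mean 0.00784 ± 0.00147 in B and 0.0145 ± 0.00381 in A, SD, n = 4 each, exact two-sided permutation test p = 0.0286, the smallest that the 70 splits allow, and 0.114 adjusted over 4 ratio tests). Slc30a8 itself was not lower in B, with a log2 change of 0.43 against A (edgeR adjusted p = 0.207, not called). The lower ratio thus goes with Gcg, which was higher in B (log2 change 1.28, SE 0.26, edgeR adjusted p = 0.00613). The reporter of Gcg set the gates, so the ratio is not independent of the sort. Sign flips within the 4 pairs cannot give a p under 0.125, which is the value they gave, and with any 1 library left out p was 0.0571. In N the ratio was 0.337 ± 0.0642 (SD, n = 4), where Gcg was low.

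**Figure D3:**
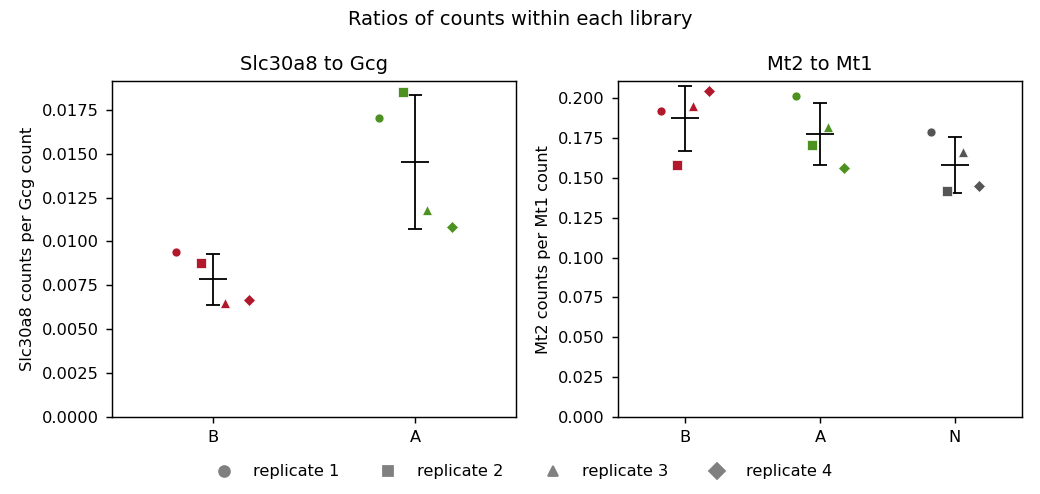
Left, Slc30a8 counts per Gcg count in each library of B and A; right, Mt2 counts per Mt1 count in each library of B, A and N, with symbols for the replicate number and the mean and SD. The Slc30a8 to Gcg ratio averages 0.00784 in B and 0.0145 in A without overlap, and the Mt2 to Mt1 ratios of all 3 groups overlap.

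The genes whose log2 CPM followed that of Slc30a8 most closely over the 12 libraries were Slc16a10, an aromatic amino acid transporter (Pearson r = 0.993), Gpr119, a lipid-sensing receptor of islet and gut endocrine cells (0.991), Tnr, tenascin R (0.991), Sstr3, a somatostatin receptor (0.991), and Pdzrn4 (0.990), among 10267 genes with a mean log2 CPM of at least 3. These values are a description, since the 12 libraries share the division into 3 groups.

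Of the other exporters, Slc30a7 and Slc30a5 were called lower than N on TMM-scaled counts in at least 1 alpha cell group, and Slc30a1 in neither. Slc30a7 (ZnT7, chromosome 3, 115732622 to 115801055, minus strand), which carries zinc into the Golgi, stood at 34.9, 32.8, 40.0 and 40.5 CPM in B, 42.9, 38.7, 30.9 and 42.8 CPM in A and 74.9, 53.9, 72.7 and 76.6 CPM in N. All B and A libraries lay below all N libraries. It was lower than N by a log2 change of -0.91 in B (edgeR adjusted p = 0.000112) and -0.84 in A (SE 0.14, edgeR adjusted p = 0.000423). The uncentred TPM gave 0.53 in B and 0.43 in A, neither called. On the TPM centred on the median gene both calls were lost (-0.23 in B, limma adjusted p = 0.428, and -0.34 in A, limma adjusted p = 0.258), and with no factors that in A was (-0.27, edgeR adjusted p = 0.13).

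Slc30a5 (ZnT5, chromosome 13, 100939156 to 100969935, minus strand), which works in the early secretory pathway, stood at 103, 104, 95.9 and 94.6 CPM in B, 121, 125, 97.3 and 126 CPM in A and 155, 102, 152 and 182 CPM in N. It was called lower in B than in N (log2 change -0.57, SE 0.15, edgeR adjusted p = 0.00511) and not in A against N (-0.33, edgeR adjusted p = 0.0865). N replicate 2 lay within the range of A, and without it the change in A against N was -0.48 and called (edgeR adjusted p = 0.0037). On the uncentred TPM Slc30a5 was called higher than N in B (0.56, limma adjusted p = 0.0332) and in A (0.79, limma adjusted p = 0.00526), so its direction depends on the scale. The lower call in B was also lost with no factors (-0.03, edgeR adjusted p = 0.863) and on the centred TPM (-0.21, limma adjusted p = 0.437).

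Slc30a1 (ZnT1, chromosome 1, 191638879 to 191645359, plus strand), the plasma membrane exporter, was not called in any of the 3 comparisons. It stood at 13.8 ± 1.46 CPM in B, 13.9 ± 4.39 CPM in A and 19.7 ± 5.19 CPM in N (SD, n = 4 each), and the groups overlapped. The log2 change was -0.02 in B against A (95% interval -0.54 to 0.50), -0.50 in A against N (edgeR adjusted p = 0.109) and -0.51 in B against N (edgeR adjusted p = 0.0816). Without N replicate 2 it was called lower in A (-0.64, edgeR adjusted p = 0.0475) and in B (-0.65, edgeR adjusted p = 0.0322), and without A replicate 2 in A (-0.68, edgeR adjusted p = 0.0409). Neither Slc30a7 nor Slc30a5 was called between B and A, with log2 changes of -0.07 and -0.24.

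All 3 importers were lower in B than in N, and Slc39a5 by most. Slc39a5 (ZIP5, chromosome 10, 128231800 to 128237098, minus strand), an importer of the basolateral membrane of intestinal and acinar cells, stood at 16, 36.1, 19.5 and 14.2 CPM in B, 20.5, 40.5, 35.7 and 46.2 CPM in A and 134, 61.2, 134 and 150 CPM in N. Every B and A library lay below every N library in CPM. The log2 change against N was -2.48 in B (SE 0.35, edgeR adjusted p = 4.44e-05) and -1.74 in A (SE 0.34, edgeR adjusted p = 0.00114), with 17.9% of the mean N level in CPM left in B and 29.9% in A. On the uncentred TPM the groups overlapped and the change was -1.38 in B (limma adjusted p = 0.00225) and -0.61 in A (limma adjusted p = 0.141, not called), with 36.0% of the mean N level in TPM left in B and 60.2% in A.

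In the fit without pairing, Slc39a5 was also the gene of the 9 with an unadjusted p under 0.05 between B and A (log2 change -0.73, SE 0.34, 95% interval -1.46 to -0.01, edgeR adjusted p = 0.171), lower in B in 4 of 4 pairs. With a term for the replicate number its 95% interval was -1.52 to 0.08 (edgeR unadjusted p = 0.0714). In that fit Slc30a8 (edgeR unadjusted p = 0.0269) and Mt1 (edgeR unadjusted p = 0.0443) were under 0.05 instead, neither called after adjustment. B replicate 2 held the highest B value, and without it the change was -1.13 and passed the test (edgeR adjusted p = 0.0323). That library also had the highest acinar share in B, 2.5% of counts, where the other B libraries had 1.07 to 1.29%. Over the groups the acinar share in B was 23.8% and in A 39% of its N level, and its part in the level of Slc39a5 was not tested. The Slc39a5 gene lies whole within Ankrd52 on the opposite strand, and with the strand setting of the counting not given in the sources, reads of the 2 genes cannot be told apart with certainty. Ankrd52 counts were 10.5 to 60.5% of the Slc39a5 counts in B, 8.72 to 29.5% in A and 6.58 to 21.5% in N, and Ankrd52 had log2 changes of 0.02 in B against A (edgeR adjusted p = 0.98), -0.90 in A against N (edgeR adjusted p = 0.0223) and -0.88 in B against N (edgeR adjusted p = 0.0176).

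Slc39a14 (ZIP14, chromosome 14, 70540918 to 70588874, minus strand), which also carries iron and manganese, stood at 23.8, 26.4, 24.6 and 31.8 CPM in B, 21.5, 22.7, 38.3 and 35.7 CPM in A and 59.8, 42.8, 54.1 and 65.6 CPM in N. The B and A libraries overlapped and lay below all N libraries. The log2 change was -1.06 in B against N (edgeR adjusted p = 0.000466), -0.91 in A against N (SE 0.20, edgeR adjusted p = 0.0025) and -0.15 in B against A (edgeR adjusted p = 0.679). Against N the uncentred TPM gave 0.04 in B and 0.09 in A, and with no factors the call in A was lost (-0.34, edgeR adjusted p = 0.159).

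Slc39a8 (ZIP8, chromosome 3, 135531040 to 135594333, plus strand), the closest relative of ZIP14, stood at 12.4, 15.8, 13.3 and 9.36 CPM in B, 15.9, 16.4, 26.7 and 13.4 CPM in A and 31.6, 19.2, 31.0 and 31.1 CPM in N. B lay below N without overlap (log2 change -1.15, edgeR adjusted p = 0.000957), and A overlapped with N (-0.64, SE 0.24, edgeR adjusted p = 0.04). The call in A was lost without N replicate 1, 3 or 4, A replicate 1, 2 or 4, or B replicate 1 (edgeR adjusted p = 0.00589 to 0.112 over the 12 fits with 1 library left out) and in a fit of A and N alone (edgeR adjusted p = 0.0529). It was also lost with no factors (-0.07, edgeR adjusted p = 0.817) and on the centred TPM (-0.39, limma adjusted p = 0.223), and the uncentred TPM gave -0.05 in B and 0.38 in A, neither called. Between B and A the change was -0.51 (SE 0.24, edgeR adjusted p = 0.179), lower in B in 4 of 4 pairs.

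Mt1 and Mt2 lie in a cluster on chromosome 8 (GRCm39, plus strand), with Mt2 at 94899292 to 94900196 and Mt1 at 94905710 to 94906955, 5513 bases apart. Their promoters, and that of Slc30a1, are printed because MTF1 is known to act on these 3 genes through the metal response element, of which TGCACNC and TGCGCNC are the core letters. The windows run from 250 bases before to 50 bases after the RefSeq gene start in GRCm38.p6, a build other than that of the counts, and capitals mark matches on either strand, none of them overlapping.
Mt1 (chr8:94178839-94179138, plus strand): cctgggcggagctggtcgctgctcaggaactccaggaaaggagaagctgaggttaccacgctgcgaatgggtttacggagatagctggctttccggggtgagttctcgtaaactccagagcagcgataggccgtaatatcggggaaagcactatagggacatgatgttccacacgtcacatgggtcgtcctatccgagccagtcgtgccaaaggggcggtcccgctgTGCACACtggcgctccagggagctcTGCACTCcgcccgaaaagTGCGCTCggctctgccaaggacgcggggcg
Mt2 (chr8:94172368-94172667, plus strand): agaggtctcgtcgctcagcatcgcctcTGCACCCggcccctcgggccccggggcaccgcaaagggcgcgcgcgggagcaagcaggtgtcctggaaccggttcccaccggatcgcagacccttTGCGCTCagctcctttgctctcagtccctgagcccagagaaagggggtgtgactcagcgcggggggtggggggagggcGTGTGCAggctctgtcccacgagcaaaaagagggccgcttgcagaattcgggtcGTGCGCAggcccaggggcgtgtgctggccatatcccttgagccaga
Slc30a1 (chr1:191906531-191906830, plus strand): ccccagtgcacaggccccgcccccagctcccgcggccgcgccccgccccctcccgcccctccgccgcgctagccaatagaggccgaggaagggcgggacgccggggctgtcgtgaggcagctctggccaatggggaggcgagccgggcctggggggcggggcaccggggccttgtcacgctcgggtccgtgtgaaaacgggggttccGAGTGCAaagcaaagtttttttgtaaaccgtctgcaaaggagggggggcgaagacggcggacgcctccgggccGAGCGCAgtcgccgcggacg

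The Mt1 window holds 3 matches, all on the plus strand, the Mt2 window 4, with 2 on each strand, and the Slc30a1 window 2, both on the minus strand. Of 32851 promoter windows of the same length, 25.7% hold at least 1 match, 7.11% at least 2, 1.97% at least 3 and 0.517% at least 4. Of the 9 genes, 7 have a window in the table, and among the others Slc30a5 has 1 match and Slc30a7 0, while Slc39a5 and Slc39a8 have 2 windows each, 1 with a match and 1 with none. A match describes letters and is not evidence of a bound site. Bases outside the windows were not searched, so these are not counts of all such elements of a gene.

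Mt1 (ENSMUSG00000031765.9) was lower in both alpha cell groups than in N. It stood at 108, 215, 196 and 60.5 CPM in B, 156, 265, 316 and 181 CPM in A and 1218, 505, 1126 and 621 CPM in N. Every B and A library lay below the lowest N library in CPM, and B overlapped with A. Mt1 was 5.98-fold lower in B than in N (log2 change -2.58, SE 0.41, edgeR adjusted p = 0.000112) and 3.78-fold lower in A than in N (-1.92, SE 0.40, edgeR adjusted p = 0.0017). The difference was smaller on the uncentred TPM, at -1.51 in B (2.85-fold lower, limma adjusted p = 0.00152) and -0.76 in A (limma adjusted p = 0.0809, not called), and there N replicate 2, at 1063 TPM, lay within the range of B and of A. Between B and A the change was -0.66 (SE 0.39, 95% interval -1.49 to 0.17, edgeR adjusted p = 0.288), lower in B in 4 of 4 pairs. With a term for the replicate number it was -0.74 (95% interval -1.46 to -0.02, edgeR adjusted p = 0.15). Acinar and erythroid markers were also highest in N by mean, at the shares given above. So were mesenchymal markers, at 0.0923% of counts in B, 0.702% in A and 1.43% in N, and ductal, endothelial and immune markers. The part of any of these markers in the metallothionein levels was not tested.

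Mt2 (ENSMUSG00000031762.8) had the same order of groups at a lower level. It stood at 20.8, 34.0, 38.2 and 12.3 CPM in B, 31.5, 45.2, 57.4 and 28.2 CPM in A and 217, 71.6, 187 and 90.1 CPM in N, with no overlap of N with B or A. The log2 change was -2.42 in B against N (edgeR adjusted p = 0.000207), -1.80 in A against N (SE 0.40, edgeR adjusted p = 0.00282) and -0.62 in B against A (edgeR adjusted p = 0.336), lower in B in 4 of 4 pairs. The uncentred TPM gave -1.31 in B (limma adjusted p = 0.00347) and -0.63 in A (limma adjusted p = 0.129, not called), with overlap of N with B and A.

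The ratio of Mt2 to Mt1 counts within a library needs no scaling between libraries. It was 0.192, 0.158, 0.195 and 0.204 in B, 0.201, 0.170, 0.182 and 0.156 in A and 0.178, 0.142, 0.166 and 0.145 in N. The mean was 0.187 ± 0.0201 in B, 0.177 ± 0.0193 in A and 0.158 ± 0.0175 in N (SD, n = 4 each). No difference passed an exact two-sided permutation test with 4 libraries a group (B against A p = 0.486, A against N p = 0.171, B against N p = 0.0857, the last test added after the data were seen), although A and B were each higher than N in 4 of 4 pairs. Adjusted over the 4 ratio tests, with that of Slc30a8 to Gcg, these exact permutation p-values are 0.486, 0.229 and 0.171.

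The N libraries differed widely in both metallothioneins, with replicates 1 and 3 above replicates 2 and 4. N replicate 2 was the lowest N library for 8 of the 9 genes, all but Slc30a8. That library had the highest erythroid share of the N group, 23.0% of counts, and the lowest acinar share, 4.46%, and the part of either in these levels was not tested. With N replicate 2 left out, all 9 genes were called in A against N and the changes of Mt1, Mt2 and Slc39a5 were -2.11, -2.03 and -1.96. In B, replicate 4 was the lowest library for 6 of the 9 genes. The genes whose log2 CPM followed Mt1 most closely over the 12 libraries were Mif, a cytokine, and Perp, an epithelial membrane protein (Pearson r = 0.981 each), Gjb1, the gap junction protein connexin 32 (0.980), Lxn, a carboxypeptidase inhibitor, and the tetraspanin Tspan1 (0.977 each), given as a description as above.

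Levels can be compared between genes on the deposited TPM scale. Mt1 was the most abundant of the 9 in every group by mean, at 814 ± 379 TPM in B, 1274 ± 342 TPM in A and 2275 ± 939 TPM in N (SD, n = 4 each). In B the next was Slc30a8 at 255 ± 47.5 TPM, ahead of Mt2 at 170 ± 69.0 TPM, with overlapping spreads. In A, Mt2 at 259 ± 71.6 TPM stood before Slc30a8 at 191 ± 29.2 TPM, again within their spread. In N, Mt2 at 436 ± 214 TPM was followed by Slc39a5 at 61.2 ± 28.7 TPM and Slc30a5 at 38.3 ± 15.6 TPM, those 2 within their spread, and Slc30a8 came next at 14.2 ± 4.36 TPM. Among the 4 exporters of the 9 genes, Slc30a5 came after Slc30a8 in B (53.3 ± 1.70 TPM) and A (63.0 ± 7.20 TPM), and Slc30a1 was the lowest of the 9 genes in each group by mean, at 6.19 TPM in B, 5.15 TPM in A and 3.8 TPM in N on average. In B, Slc30a1 (SD 1.84 TPM) and Slc39a8, at 6.63 ± 1.06 TPM, were within their spread.

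Among 21 other genes of zinc transport and zinc response, of which 17 were tested, 1 rose and 1 fell in B against A on TMM-scaled counts (median log2 change -0.08), beside 4.63% higher and 9.12% lower among all genes. The gene that rose was Mtf1, which encodes the zinc sensor named above. It stood at 36.4, 40.0, 40.7 and 42.8 CPM in B, 23.0, 21.1, 16.4 and 28.4 CPM in A and 18.5, 12.8, 16.7 and 14.5 CPM in N. All B libraries lay above all A libraries (log2 change 0.85, SE 0.17, edgeR adjusted p = 0.00513). Mtf1 was also called higher than N in B (1.35, edgeR adjusted p = 1.40e-05) and in A (0.51, edgeR adjusted p = 0.0239), the last being lost without N replicate 2 or 4 or A replicate 1 or 4, up to an edgeR adjusted p of 0.0837, and with no filter. Its known targets Mt1, Mt2 and Slc30a1 were not called between B and A. The metallothionein Mt3 was not called there on TMM-scaled counts (-1.18, edgeR adjusted p = 0.151). It was called lower in B than in A on the uncentred TPM (-0.86, limma adjusted p = 0.0306) and on the centred TPM (-0.85, limma adjusted p = 0.0335). Its counts were low, at 3 to 11 per B library and 8 to 21 per A library.

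The gene that fell on TMM-scaled counts was Slc39a10, the plasma membrane importer ZIP10. It stood at 49.3, 47.3, 37.4 and 38.5 CPM in B, 80.4, 82.5, 71.2 and 65.2 CPM in A and 115, 83.9, 109 and 107 CPM in N. In CPM the 3 groups did not overlap, with B lowest. In TPM the mean was 15.3 in B, 25.8 in A and 19.0 in N, and A and N overlapped. The log2 change was -0.79 in B against A (SE 0.13, edgeR adjusted p = 0.00224), -0.47 in A against N (edgeR adjusted p = 0.0117) and -1.26 in B against N (edgeR adjusted p = 4.03e-06). The change in A against N turned to 0.10 with no factors and to 0.47 on the uncentred TPM, and on the TPM centred on the median gene that in B against A was -0.68 and not called. The centred TPM also lost the call in A against N (-0.31, limma adjusted p = 0.242). The call in B against N was lost on the uncentred TPM (-0.23, limma adjusted p = 0.344). Mesenchymal markers, at 0.0923% of counts in B, 0.702% in A and 1.43% in N, had the same order of group means as Slc39a10 in CPM, which was not its order in TPM. So did the acinar, ductal, endothelial, immune and erythroid markers. The acinar, ductal and erythroid shares of B overlapped with those of A. The part of any of these markers in the level of Slc39a10 was not tested.

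**Figure D4:**
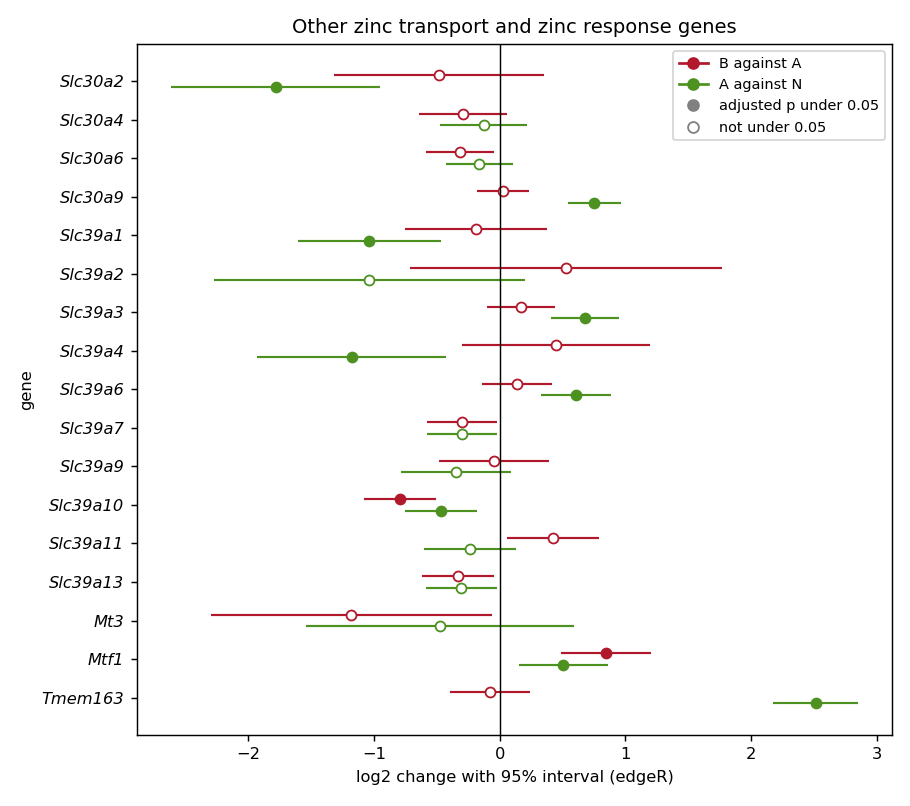
Log2 change with 95% interval from edgeR of the 17 other zinc genes tested, for B against A and A against N, filled where the adjusted p is under 0.05. Tmem163 stands alone at 2.51 in A against N, and Mtf1 and Slc39a10 are the 2 filled symbols of B against A.

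Against N, 5 of the 17 rose and 8 fell in B (median -0.48), beside 29.7% and 30.5% of all genes, and 5 rose and 4 fell in A (median -0.30), beside 23.8% and 21.3%. These counts depend on the scaling: with no factors 6 rose and 3 fell in B and 7 rose and 1 fell in A, and the uncentred TPM gave 9 higher and 0 lower in B and 11 higher and 0 lower in A. Tmem163, which encodes a zinc transporter of vesicle membranes, stood at 45.7 ± 0.936 CPM in B, 48.3 ± 5.79 CPM in A and 8.45 ± 1.85 CPM in N (SD, n = 4 each). It was 5.41-fold higher than N in B (log2 change 2.44, SE 0.16, edgeR adjusted p = 4.41e-08) and 5.71-fold higher in A (2.51, SE 0.16, edgeR adjusted p = 5.62e-08), and it was not called in B against A (-0.08, edgeR adjusted p = 0.786). On the uncentred log2(TPM + 1) scale the fold was 11.8 in both B and A. Besides Tmem163 and Mtf1, the genes that rose in both groups were Slc30a9, a mitochondrial zinc exporter (log2 change 0.78 in B and 0.75 in A), Slc39a3 (0.85 in B and 0.68 in A) and Slc39a6 (0.74 in B and 0.61 in A), the last 2 each a plasma membrane importer.

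Of those that fell, Slc30a2, which loads zinc into the granules of acinar cells, changed by -2.26 in B and -1.78 in A (edgeR adjusted p = 0.000249 in B and 0.00232 in A). On the uncentred TPM its changes were -0.44 in B (limma adjusted p = 0.0813) and -0.31 in A (limma adjusted p = 0.224), neither called. Slc39a1 changed by -1.23 in B and -1.04 in A, and Slc39a4, the importer of the gut, by -1.18 in A (edgeR adjusted p = 0.0145, lost without N replicate 3 at an adjusted p of 0.0596) with -0.73 in B, which was not called. With no factors the calls in A of Slc39a1 (-0.48, edgeR adjusted p = 0.141) and Slc39a4 (-0.59, edgeR adjusted p = 0.161) were lost. That of Slc39a4 was also lost on the centred TPM (-0.42, limma adjusted p = 0.21). On the uncentred TPM Slc39a1 in B was at -0.09 and not called (limma adjusted p = 0.724). In B against N, Slc39a13, Slc39a7, Slc30a6, Slc30a4 and Mt3 were also called lower, by log2 changes of -0.63, -0.60, -0.48, -0.42 and -1.66, although these genes were not tested for a difference between the comparisons. The call of Slc30a4 was lost without N replicate 1, 3 or 4 or B replicate 2 or 3 (edgeR adjusted p up to 0.109). With no factors none of Slc39a13, Slc39a7, Slc30a6, Slc30a4 and Mt3 was called in B (edgeR adjusted p = 0.0724 for Mt3 to 0.709 for Slc30a6). On the centred TPM the calls of Slc39a7, Slc30a6 and Slc30a4 were lost (limma adjusted p = 0.2, 0.223 and 0.3). On the uncentred TPM Mt3 was at -0.39 and not called (limma adjusted p = 0.154). On the uncentred TPM the changes of Slc39a1 and Slc39a4 in A, and of Slc39a13, Slc39a7, Slc30a6 and Slc30a4 in B, turned positive, and with no factors those of Slc30a6 and Slc30a4 did. Slc30a3, Slc30a10, Slc39a12 and Mt4 did not pass the filter on low counts, and Mt4 had no count in any library.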

How the data were processed

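The 12 RNA-seq libraries came from sorted Gcg-Timer pancreas cells at E17.5 (4 each of B, A and N). The authors deposited, per the file headers, estimated counts and TPM per gene and library, in a table on GRCm39 with the reporter sequences and in an mm10 table. The tools DRAGEN and STAR 2.5.2b and the builds mm10 (GRCm38) and mm39 (GRCm39) appear per the submitters' processing notes; which made which table, the strand of counting and the handling of shared reads are not given in the sources used here. A filtered mm10 sheet was left out.

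Estimated counts were rounded (library totals moved by at most 0.000286%), filtered with filterByExpr (17230 of 55417 genes) and fitted by group over all 12 libraries with edgeR 4.0.16 (TMM, glmQLFit and glmQLFTest) in R 4.3.3, at a Benjamini-Hochberg adjusted p of 0.05. TMM factors were 1.10 to 1.14 in B, 1.12 to 1.18 in A and 0.732 to 0.81 in N, and the common biological coefficient of variation was 0.305. Spreads and intervals cover these libraries only. Ratios of counts were tested by exact permutation over 70 splits with scipy 1.17.1. The edgeR test was checked on simulated counts with known changes in B alone. These counts held no wide shift between N and the other groups, so the check does not bear on the scaling against N. The text names all 9 genes in every comparison, the other zinc genes that were called, the 5 genes most like Slc30a8 and Mt1, and Gcg; Ankrd52 was added for its overlap. These genes and lists were chosen with earlier results of these data known. Promoters come from RefSeq on GRCm38.p6.

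Replicate numbers were taken as pairs: each preparation came from a different mother and was sorted into the 3 groups, Y-linked genes shared one level per number, with 112 to 156 CPM for number 1 and 0.191 to 0.488 CPM for number 3, and deviations of same-numbered libraries correlated at 0.0467 to 0.233 over 12 pairs. Alternatives were RLE, upper quartile or no factors, DESeq2 1.42.0, no filter, 10 counts in 8 libraries, only the groups compared, the replicate block, fits without each library in turn, and the deposited mm10 counts. The test of the Mt2 to Mt1 ratio between B and N, and tests with limma 3.58.1 on log2(deposited TPM + 1), as deposited and centred on the median gene, were chosen after the data were seen.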

Additional observations from a re-analysis of the deposited data

Results flagged for a closer look

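Of 33 groups of 4 libraries looked at, 2 held a library far from the other 3, where chance gives about 1 in 20. Slc30a5 was at 97.3 CPM in A replicate 3, where the other A libraries were at 121 to 126 CPM. Slc39a8 was at 19.2 CPM in N replicate 2, where the other N libraries were at 31.0 to 31.6 CPM.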

How the results depend on the processing

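Slc30a8 was called higher than N in B and in A under every alternative run, and Mt1, Mt2 and Slc39a5 were called lower than N in B under every one and in A under every one except the uncentred TPM. Among settings with all libraries, counts of the 9 genes called moved by over 1.5 times only in A against N with no factors (4, with 1 higher and 3 lower) and on the uncentred TPM (2 higher in A against N, and 5 in B against N, 2 higher and 3 lower). Among the 9 genes and the other zinc genes called in the same comparison, the sign turned on the uncentred TPM in A against N for Slc30a1 (0.33), Slc30a5 (0.79), Slc30a7 (0.43), Slc39a8 (0.38), Slc39a14 (0.089), Slc39a1 (0.037), Slc39a10 (0.47) and Slc39a4 (0.35), in B against N for Slc30a1 (0.57), Slc30a5 (0.56), Slc30a7 (0.53), Slc39a14 (0.040), Slc30a4 (0.49), Slc30a6 (0.51), Slc39a13 (0.27) and Slc39a7 (0.49), and in B against A for Slc30a1 (0.24) and Slc30a7 (0.10). Among these genes it turned on the centred TPM for Slc30a5 in A against N (0.0097) and for Slc30a1 (0.25) and Slc30a7 (0.11) in B against A. With no factors it turned, among them, for Slc30a1 (0.073), Slc30a5 (0.23) and Slc39a10 (0.10) in A against N and for Slc30a1 (0.033), Slc30a4 (0.12) and Slc30a6 (0.060) in B against N. The cause of these shifts was not tested beyond the move of the median gene, and with no factors 8243 genes were higher and 1386 lower in A against N (4099 and 3664 with TMM) and 8263 and 3407 in B against N (5118 and 5257).

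With 1 library left out, the 9 genes called numbered 0 to 1 in B against A, 6 to 9 in A against N and 8 to 9 in B against N, the other zinc genes 2 to 4, 8 to 11 and 12 to 14, and all genes 1506 to 2840, 6694 to 7971 and 9690 to 10847; the lowest for B against A were 1506 without B replicate 1 and 1523 without A replicate 2. Without N replicate 2, 4 other zinc genes were called in B against A. Slc30a1 in B against A ran from -0.20 to 0.17, positive without A replicate 2 (0.17), A replicate 4 (0.01) or B replicate 4 (0.05). The Slc30a8 to Gcg difference ran from -0.00793 to -0.00536, at p = 0.0571 in each exact permutation test, the smallest that 3 against 4 libraries allow. With the replicate block, the pairing changed no call of the 9 genes (0 called in B against A, 7 in A against N and 8 in B against N), added Slc39a13 as lower in A against N (-0.32, adjusted p = 0.0478) and Slc39a9 as lower in B against N (-0.39, adjusted p = 0.0405), and gave -0.00669 for the Slc30a8 to Gcg difference at an exact p of 0.125. Slc30a1 in B against N was called with upper quartile factors (adjusted p = 0.0448), DESeq2 (0.0398), the groups compared alone (0.0382) and without A replicate 3 (0.0391), and Slc30a5 in A against N with RLE (0.0405), upper quartile factors (0.0458) and DESeq2 (0.0278). The lowest count among the 9 genes was 173, for Slc39a8 in B replicate 4, while of the other zinc genes named Mt3 had 3 to 11 counts and Slc30a2 13 to 43 counts per B library, which limits their precision.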
